A study of Drosophila melanogaster with 2 samples.

Results

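The genes described here are 9 regulators of mitosis and of entry into the division cycle in Drosophila melanogaster: CycA, CycB, CycB3, CycE, Cdk1, stg, twe, aurA and polo. They were chosen by name out of 13945 protein-coding genes, and every peak was taken whose summit lay inside one of them or had one of their transcription start sites (TSSs) as the nearest protein-coding TSS. The peaks come from chromatin immunoprecipitation and sequencing (ChIP-seq) of whole embryos aged 0 to 4 hours, collected from a transgenic line that carries CG7271 with GFP at its C-terminal end. An anti-GFP antibody is named in the sample description, and CG7271 in the antibody label. There are 2 libraries, biological replicates 2 and 3 from separate biosamples, and they form 1 group with no untagged or input library analysed here. Which promoter drives the tagged gene is not given in the sources used here.

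Cyclins are activating subunits of cyclin-dependent kinases, and their periodic build-up and destruction drive the division cycle. Cdk1 bound to a mitotic cyclin triggers mitosis once a Cdc25 phosphatase has removed the inhibitory phosphates from it, while Aurora A and Polo are kinases of centrosome maturation and spindle assembly. The fly embryo first divides its nuclei very fast on maternally supplied products. Later divisions depend on transcription from the embryo's own genome, and there the zygotic supply of the phosphatase String sets when each group of cells divides. Embryos of this age range span both situations, and whole embryos mix all their cells.

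Peaks were ranked by the authors' signal within each list, with rank 1 the highest. The signal scale is not stated, so it is compared only within a list. The replicate 2 list, the replicate 3 list and the list called on both together (the pooled list) held 30000 peaks each. The authors' irreproducible discovery rate (IDR) step kept 2445 peaks, and these are the 2445 pooled peaks of highest signal. Peaks were called promoter peaks of a gene where no more than 500 bp separated the summit from one of its TSSs, and any other assigned peak is called distal.

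The 9 genes carried promoter peaks of the IDR list in 5 cases: aurA, CycB, Cdk1, stg and CycE. This is 55.6% (exact 95% interval 21.2 to 86.3%, counting error over 9 genes), beside 12.0% of all protein-coding genes. CycA, CycB3, polo and twe had no IDR peak of any kind. All 9 had a promoter peak somewhere in the pooled list, where 54.2% of protein-coding genes did, and in the full lists of replicate 2 (53.3% of genes) and replicate 3 (53.3%). These full lists also hold peaks of weak significance. The deposited −log10 q was 0.941 at the pooled promoter peak of twe and 1.07 at the highest one of polo. In replicate 3 it was 0.479 at the highest promoter peak of polo. The highest promoter peaks of the 9 genes ranked from 1262 to 10299 in the pooled list, with a median of 2193, against a median of 6275 over the 7555 protein-coding genes that had one. All 5 IDR promoter peaks ranked between 1262 and 2193, so none was among the 1222 IDR peaks of highest signal, whose promoter peaks covered 6.33% of all genes. These 9 genes were chosen with results of these data known, so the shares describe them and were not tested.

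**Figure D1:**
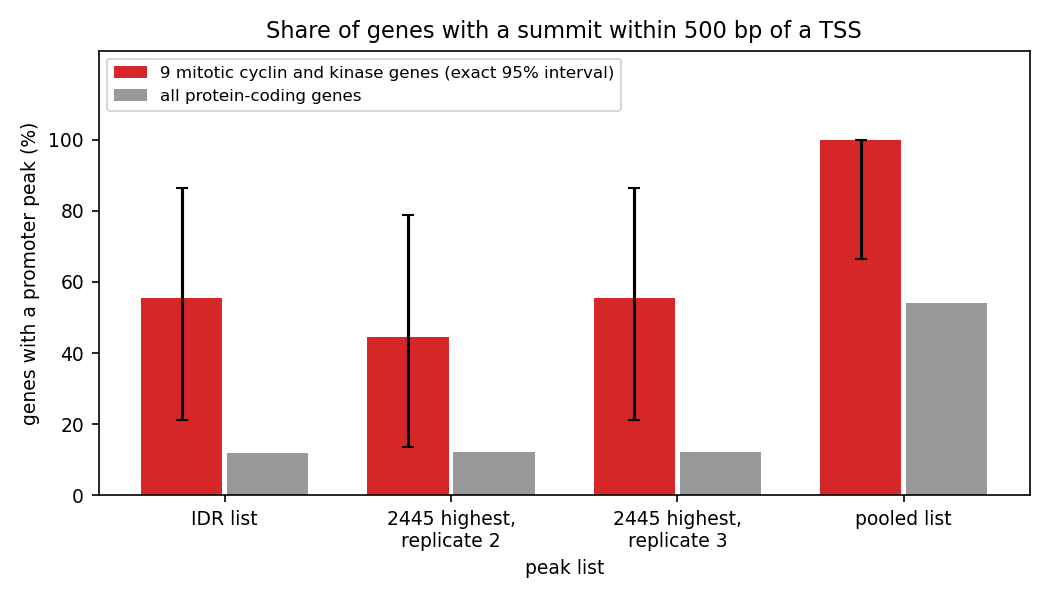
Share of genes (%, vertical axis) with a summit within 500 bp of a TSS in 4 peak lists (horizontal axis), for the 9 mitotic cyclin and kinase genes (red, with exact 95% intervals) and for all protein-coding genes (grey). The red bars stand at 55.6%, 44.4%, 55.6% and at all 9 genes, against 12.0%, 12.2%, 12.1% and 54.2% for all genes.

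Taken over equal numbers of peaks, the replicates placed partly different genes among the highest. The 2445 highest peaks of replicate 2 covered the promoters of 4 of the 9 genes (CycB, CycE, stg and aurA; 12.2% of all genes), and those of replicate 3 covered 5 (CycA, CycB, CycE, Cdk1 and aurA; 12.1%). CycB, CycE and aurA were therefore inside this limit in both libraries. Cdk1 and CycA passed it in replicate 3 only, and stg in replicate 2 only. All 7 IDR peaks assigned to the genes had a summit within 100 bp in both replicate lists, and over the whole IDR list 2350 of 2445 peaks did. Of the 31 pooled peaks assigned to the genes, 19 had such a summit in both replicate lists, 23 in replicate 2, 26 in replicate 3 and 1 in neither.

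**Figure D2:**
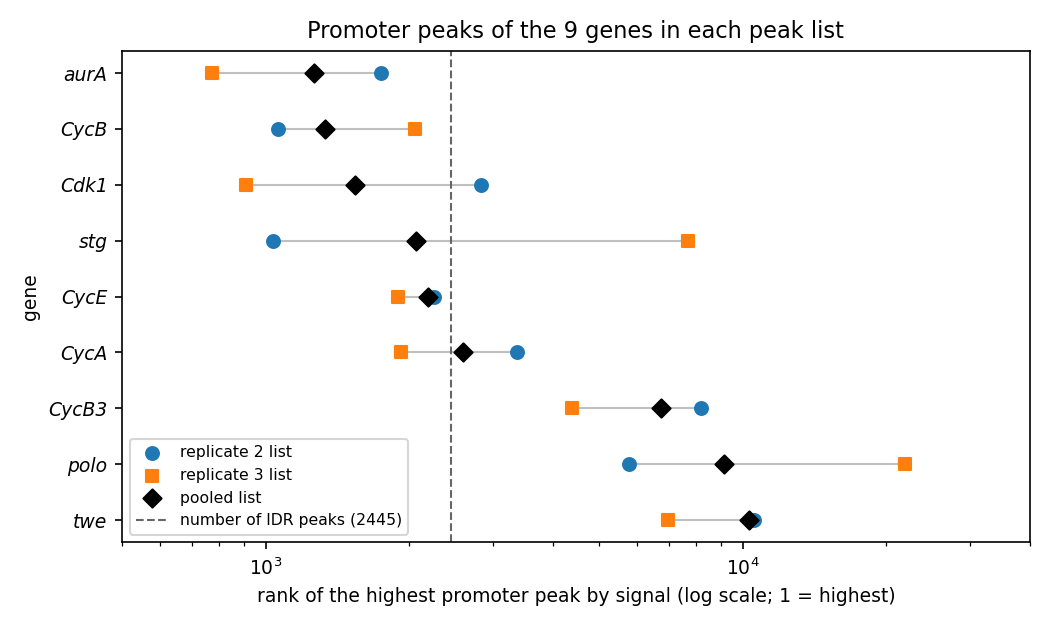
Rank of the highest promoter peak of each gene (rows) on a log scale (horizontal axis, rank 1 being the highest signal), in the replicate 2 list (circles), the replicate 3 list (squares) and the pooled list (diamonds). The dashed line marks rank 2445, the number of IDR peaks; the replicates fall on either side of it for Cdk1, stg (ranks of 1034 and 7682) and CycA, and CycB3, polo and twe lie beyond it in every list.

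CycB encodes Cyclin B, a mitotic partner of Cdk1, and lies on 2R at 22803521 to 22806948 (minus strand, dm6). It held the highest peak of all 9 genes. That summit, at position 22802969, was intergenic. It lay 552 bp beyond the 3' end of CycB and 789 bp beyond the 3' end of blw, a gene for an ATP synthase subunit, which points towards CycB from the other side. Its rank was 23 in replicate 2 and 17 in replicate 3, and its signal was 11.7 and 14.4 times the median of those lists. Both libraries thus placed it near the top of their lists, with summits 14 bp and 9 bp from the pooled summit. In the pooled list it ranked 20 with a signal of 725.8, which gave it place 6 of the 1234 IDR peaks that lie more than 500 bp from any protein-coding TSS. The nearest TSS was an internal one of CycB, 3334 bp away, so its assignment to CycB rests on distance alone.

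The second IDR peak of CycB was a promoter peak with its summit 5 bp upstream of the outermost TSS. Its rank was 1059 in replicate 2 (2.87 times the list median) and 2061 in replicate 3 (2.44 times). Pooled, it ranked 1332 with a signal of 151.5, about the median of the IDR list, 157.0. The divergent gene stl starts 912 bp away, too far for its TSS to share this summit. No other pooled peak was assigned to CycB. Peaks assigned to a gene but outside its promoters were found in the IDR list for CycB and CycE, 2 of the 9 genes, beside 7.55% of all protein-coding genes. Counting promoter and distal IDR peaks together gave the same 5 genes, beside 14.9% of all genes.

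CycA encodes Cyclin A, a mitotic cyclin that fly cells need for entry into mitosis, and lies on 3L at 11826719 to 11833578 (minus strand). Its highest peak fell just short of the IDR list. The summit lay 107 bp downstream of its single TSS, in the 5' UTR, with a pooled rank of 2594 and a signal of 112.6, compared with 115.4 for the lowest IDR peak. It ranked 3359 in replicate 2 (1.81 times the median) and 1920 in replicate 3 (2.52 times), so replicate 3 alone would have placed it among the 2445 highest. A distal peak in the first part of the gene, 1163 bp downstream of the TSS in an intron, followed with pooled rank 5092, and ranked 8551 in replicate 2 and 5876 in replicate 3. The other 3 pooled peaks of CycA ranked from 16756 to 23270. One of them, in an intron of CycA, lay 134 bp from a TSS of CG7264, a gene nested in CycA on the opposite strand.

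CycB3 encodes Cyclin B3, the third mitotic cyclin, which acts in anaphase, and lies on 3R at 24867934 to 24870816 (minus strand). Its promoter summit lay 26 bp upstream of the TSS. It ranked 8173 in replicate 2 (1.26 times the median) and 4383 in replicate 3 (1.72 times), and 6749 in the pooled list, far below the IDR limit in all 3. Among the highest promoter peaks of the 9 genes it was the only one whose window of 50 bp to either side held GGTCACAC, which M1BP, a protein that binds core promoters, is known to recognise. It was found in 1.60% of IDR windows and 0.907% of the 27555 other pooled windows. The sequence upstream of the TSS within this window is shown because it holds that match (capitals), 56 bp upstream of the TSS (chr3R:24870817-24870892, minus strand). In the part not shown, the window also held GAGAG, the pattern of the GAGA factor, which was found in 10.6% of IDR windows and 11.9% of the other pooled windows.

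CycB3 promoter: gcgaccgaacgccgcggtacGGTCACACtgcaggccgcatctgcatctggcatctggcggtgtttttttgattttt

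CycE encodes Cyclin E, the partner of Cdk2 that drives the start of DNA replication, and lies on 2L at 15727581 to 15748150 (minus strand). At 20570 bp it is the longest of the 9 genes, with 3 annotated TSSs, and it had the most peaks: 13 in the pooled list, 14 in replicate 2 and 13 in replicate 3. The median was 2 over the 9 genes and 1 over all protein-coding genes. Among the 833 genes within 1.5 times its length in either direction the median was 6, and 88.0% had fewer than 13. The deposited −log10 q of the 13 pooled peaks of CycE ran from 0.387 to 3.70, so the count takes in weak peaks.

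The higher of its 2 IDR peaks lay in an intron, 588 bp upstream of the middle TSS and 952 bp inside the outermost one. It ranked 993 in replicate 2 (2.95 times the median) and 219 in replicate 3 (6.61 times), and 472 in the pooled list. Replicate 3 ranked it higher relative to replicate 2 than is usual: 97.7% of the IDR peaks found in both lists had a lower ratio of replicate 2 rank to replicate 3 rank. The second IDR peak lay 33 bp downstream of the innermost TSS, in the 5' UTR, and ranked 2258 in replicate 2 and 1892 in replicate 3. The outermost TSS had only a weak peak, 181 bp upstream of it, with pooled rank 19645. The next intronic peak, 5423 bp downstream of the middle TSS, ranked 2880 in the pooled list, with 2044 in replicate 2 and 6482 in replicate 3. Both libraries ranked it below the first intronic peak, by more in replicate 3. Of the 3 TSSs of CycE, the innermost alone had an IDR peak within 500 bp.

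The window around the intronic summit of CycE is shown because it is the highest peak of this gene. It is rich in A and T, with 20.8% GC, and 91.3% of IDR windows had more (chr2L:15747148-15747248, minus strand), and it held none of the 9 motif patterns sought.

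CycE intron: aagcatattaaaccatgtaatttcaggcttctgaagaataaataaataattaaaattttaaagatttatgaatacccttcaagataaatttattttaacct

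**Figure D3:**
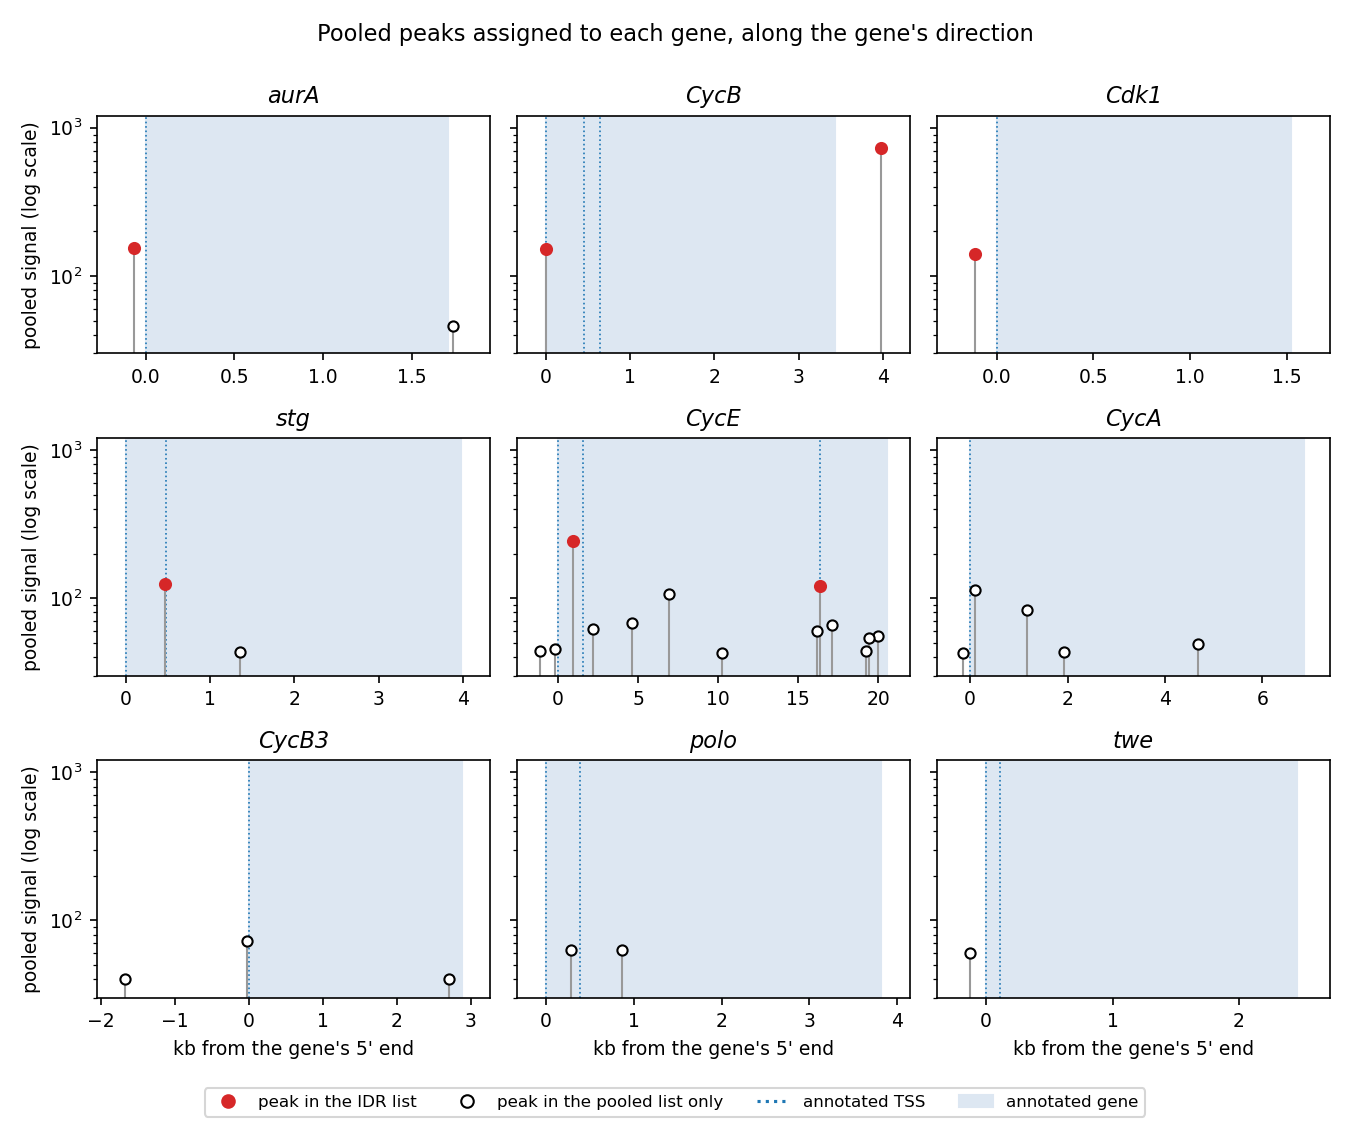
Pooled peaks assigned to each of the 9 genes, placed by distance from the gene's 5' end (horizontal axis, kb, each panel to its own scale) and by pooled signal (vertical axis, log scale). Red points are IDR peaks, open points are in the pooled list only, blue dotted lines are annotated TSSs and the shaded span is the gene; the peak beyond the 3' end of CycB reached 725.8, while CycE had 13 peaks spread along its length.

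Of the phosphatase genes stg and twe, stg had the higher promoter peak in replicate 2 (rank 1034, against 10576 for twe) and in the pooled list (2071, against 10299). In replicate 3 the order was reversed and the ranks were close, at 7682 for stg and 6975 for twe. That replicate 3 summit was within 500 bp of a twe TSS but nearer to the TSS of the neighbouring gene CG4935. stg encodes String, the Cdc25 phosphatase whose zygotic transcription times embryonic mitoses, and lies on 3R at 29251826 to 29255800 (minus strand). Its IDR peak had its summit 8 bp upstream of the inner of its 2 TSSs, within the 5' UTR of the longer transcript. It ranked 1034 in replicate 2, with 2.89 times the list median, and 7682 in replicate 3, with 1.34 times. Replicate 2 thus placed it far higher than replicate 3 did, and the ratio of replicate 2 rank to replicate 3 rank was lower at 1.06% of the IDR peaks found in both lists. The summits lay 5 bp and 38 bp from the pooled one, which ranked 2071 with a signal of 124.5. In replicate 3 a peak in the stg intron, 868 bp downstream of the inner TSS, ranked above it at 7004, and no replicate 2 summit lay within 100 bp of the matching pooled peak.

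twe encodes Twine, the other Cdc25 phosphatase, known for its roles in meiosis and in the early syncytial divisions, and lies on 2L at 16259414 to 16261877 (minus strand). Its only pooled peak lay midway between twe and the divergent gene CG4935, 132 bp from either TSS, so the summit belongs to neither gene more than to the other. It ranked 10299 in the pooled list, the lowest of the 9 best promoter peaks. The replicate 3 list had a summit 14 bp away with rank 6975, 146 bp upstream of the outer twe TSS. It was nearer to the TSS of CG4935, so it was not assigned to twe. The highest replicate 3 peak that was assigned to twe lay in a coding exon, at rank 10231. The replicate 2 list had no summit within 100 bp of the pooled one. Its highest promoter peak for twe, 45 bp upstream of the inner TSS and 200 bp from the pooled summit, ranked 10576. The window between the divergent starts is shown for its base composition: it had 17.8% GC, and 96.7% of IDR windows had more, although this peak was not in the IDR list (chr2L:16261959-16262059, minus strand).

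twe and CG4935: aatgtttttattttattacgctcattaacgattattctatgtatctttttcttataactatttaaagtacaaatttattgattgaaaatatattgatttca

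The kinase genes Cdk1 and aurA each had 1 IDR peak, between divergent starts. Cdk1, the catalytic subunit of the mitotic kinase, lies on 2L at 10384739 to 10386262 (minus strand), and its 5' end is 400 bp from that of mRpS7, a mitochondrial ribosomal protein gene. The summit lay 110 bp upstream of the TSS of Cdk1 and 290 bp from a TSS of mRpS7. It ranked 2825 in replicate 2 (1.94 times the median) and 909 in replicate 3 (3.57 times), and 1540 in the pooled list with a signal of 141.5. No other peak of any list was assigned to Cdk1.

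aurA, which encodes the Aurora A kinase of centrosomes, lies on 3R at 11963124 to 11964826 (plus strand), with its 5' end 319 bp from that of CG3281. The summit lay 68 bp upstream of the aurA TSS and 251 bp from that of CG3281. It ranked 1742 in replicate 2 (2.34 times the median) and 770 in replicate 3 (3.84 times). At pooled rank 1262 and a signal of 154.6 it was the highest promoter peak of the 9 genes. In replicate 2 the summit lay nearly midway, 155 bp from the aurA TSS and 164 bp from the CG3281 TSS, and in replicate 3 it lay 80 bp from the aurA TSS. A second pooled peak, at the 3' end of aurA and in the 3' UTR of CG12213, ranked 19333.

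Both summit windows are shown because they hold the IDR promoter peaks of the kinase genes. Capitals mark the TATAAA match at Cdk1, 154 bp upstream of its TSS (chr2L:10386322-10386422, minus strand), and the CHR match, TTTGAA read on the other strand, 82 bp upstream of the aurA TSS (chr3R:11963006-11963106, plus strand). The windows had 23.8% GC at Cdk1 and 27.7% at aurA.

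Cdk1 and mRpS7: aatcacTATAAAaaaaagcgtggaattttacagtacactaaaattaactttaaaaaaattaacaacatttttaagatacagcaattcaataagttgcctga

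aurA and CG3281: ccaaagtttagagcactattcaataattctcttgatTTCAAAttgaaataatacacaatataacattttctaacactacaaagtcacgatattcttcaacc

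polo encodes the Polo kinase, which acts at centrosomes, kinetochores and in cytokinesis, and lies on 3L at 20309654 to 20313466 (plus strand). Its promoter was covered by 2 pooled peaks of almost equal signal, one 109 bp upstream of the inner TSS (rank 9135) and one 477 bp downstream of it (rank 9253). The first ranked 5783 in replicate 2, with 1.45 times the median, and 22120 in replicate 3, with 0.839 times. The second had a replicate 3 summit of rank 21946 and no replicate 2 summit within 100 bp. The highest promoter peak of polo was thus below the median signal in replicate 3, which was so for none of the other 8 genes in either replicate.

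Shared features of the peaks that were not used to choose the genes were the position of the summit, the neighbouring starts and the sequence. All 5 IDR promoter summits lay within 150 bp of the TSS, as did 70.5% of the 1211 IDR summits at protein-coding promoters, and 4 of the 5 were upstream, beside 77.9% of those. A divergent protein-coding gene started within 500 bp of Cdk1, aurA and twe, 3 of the 9 genes, beside 26.4% of all protein-coding genes. Among such genes 24.8% had an IDR promoter peak, beside 7.44% of the genes without such a neighbour. Of the 3 genes with a divergent neighbour 2 had an IDR promoter peak, and of the 6 without one 3 did.

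The 7 summit windows of 101 bp had from 20.8% to 51.5% GC, with a median of 27.7%, beside a median of 33.7% over all IDR windows and 40.6% over the other pooled windows. They fell on both sides: the intronic window of CycE, Cdk1, the intergenic window of CycB and aurA were at or under 27.7%, while the promoter windows of CycB (44.6%), CycE (50.5%) and stg (51.5%) were above 44%. The 9 patterns, sought on both strands, were DRE (TATCGATA), the M1BP pattern, GAGAG of the GAGA factor, the Zelda site (CAGGTAG), the CHR element (TTTGAA), 2 forms of the E2F site (TTTGGCGC and TTTCGCGC), an E-box (CACGTG) and TATAAA. CHR is known in vertebrates as an element of promoters of mitotic genes. It was present at 3 of the 7 IDR summits, at both peaks of CycB and at aurA, beside 15.0% of all IDR windows. The higher of these CycB peaks lies beyond the 3' end of the gene, so among the IDR promoter peaks only those of CycB and aurA held it. Outside the IDR list it was present at pooled peaks of polo, CycE and CycA, beside 12.5% of the other pooled windows. TATAAA was present at the IDR summits of Cdk1 and stg, beside 22.7% of all IDR windows. None of the 7 windows held the other 7 patterns, of which GAGAG was the most frequent in IDR windows (10.6%).

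To place the 9 genes within the wider machinery, 92 other cell cycle genes in 9 lists were examined, of which 91 were found in the annotation. An IDR promoter peak lay at 18 of the 91 (19.8%, exact 95% interval 12.2 to 29.4%), beside the 12.0% of all protein-coding genes, with 17 different summits ranked from 139 to 2346. At 15 of the 18 the summit also lay within 500 bp of a TSS of another gene of any type. The same count was not made over all genes, so it is not shown to be particular to these lists. By a narrower measure, 915 of the 1678 protein-coding genes with an IDR promoter peak had a divergent protein-coding gene starting within 500 bp. With TSSs within 200 bp the count was 11, beside 9.12% of all genes. In the pooled list 79 of the 91 had a promoter peak (86.8%), beside 54.2% of all protein-coding genes. Lists with a higher share than all genes ranged from the anaphase-promoting complex (2 of 14) to the inhibitors of Cdk1 and Cdk2 (2 of 6), each with an interval that takes in the value over all genes. These intervals give counting error only, and neither the lists nor the 9 genes were tested against all genes.

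The genes of highest rank in these lists were plu, a regulator of the PNG kinase of the early embryo, which shared its summit with the ribosomal protein gene RpS18 (rank 139), and mts, the catalytic subunit of protein phosphatase 2A, which shared its summit with Rack1 (rank 168). Their summits lay 311 bp and 395 bp upstream of their own TSSs. The anaphase-promoting complex was represented by the subunit gene Cdc16 (rank 407, with orb) and by vih, a ubiquitin-conjugating enzyme gene (rank 1192, with CG10646). The inhibitor genes were Z600, whose product binds mitotic cyclins and holds back mitosis (rank 573, with gdl), and trbl, whose product targets String for destruction (rank 1132). Z600 ranked 491 in replicate 2 and 602 in replicate 3, above stg in both. trbl ranked 1337 in replicate 2, below stg at 1034, and 1201 in replicate 3, above stg at 7682.

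Among the other cyclins, CycG (rank 552) and CycC (rank 2346, with UQCR-C1) had an IDR promoter peak, and CycD, CycH, CycJ, CycK, CycT and CycY had none. Each of the latter had a promoter peak in the pooled list, from rank 2599 at CycT to 27072 at CycJ. CycG, at 625 in replicate 2 and 614 in replicate 3, ranked above the promoter peaks of all 4 cyclin genes among the 9. Cdk12 and SAK, a Polo-like kinase of centriole duplication, shared a summit (rank 1038), and Eip63E (rank 1171) and Cks85A (rank 2203, with TMEM216) completed the list of kinases and activators. Cdk2, the partner of Cyclin E, had a promoter peak only at pooled rank 9448, and Cdk4 one at 2449, just outside the IDR list. The chromosomal passenger gene Det had rank 1828 (with m-cup), while aurB, the gene of the sister kinase Aurora B, stood at pooled rank 7213.

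The checkpoint genes with an IDR promoter peak were mei-41, the ATR kinase gene (rank 596, with TH1), tefu (rank 992, with Hsc70-4) and the spindle checkpoint gene Bub3 (rank 1495, with Cap-D2). The tefu summit lay 298 bp upstream of its TSS. The E2F factor genes were Dp (rank 907) and E2f1 (rank 2196), each with a non-coding RNA gene that starts within 500 bp of the summit. None of 6 cohesin and separase genes had one. The inhibitory kinase genes Wee1 and Myt1, which counter String and Twine, had promoter peaks only at pooled ranks 7990 and 17944.

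**Figure D4:**
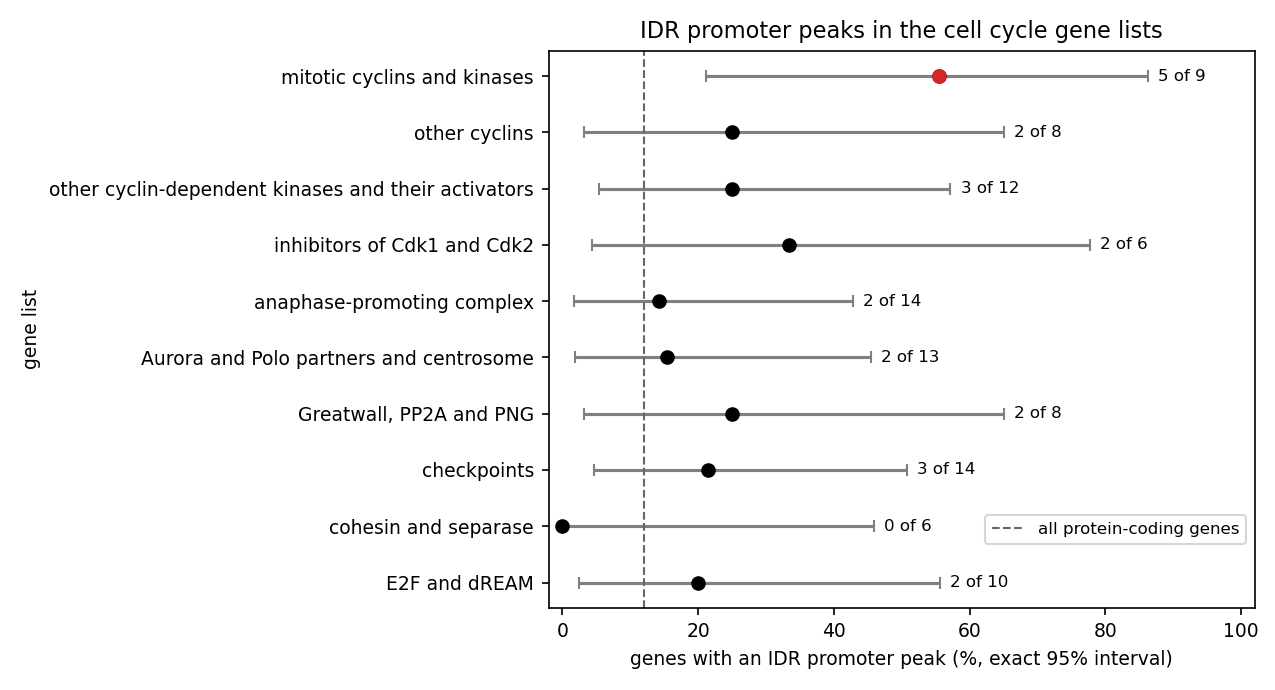
Share of genes with an IDR promoter peak (%, horizontal axis, with exact 95% intervals and counts) in the mitotic cyclin and kinase genes (red, top row) and in 9 other cell cycle lists (black rows). The dashed line marks all protein-coding genes, 12.0%, and the top row stands at 55.6% (interval 21.2 to 86.3%). The genes were chosen with results of these data known, so the intervals give counting error and are not a test against that line.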

How the data were processed

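ChIP-seq peak lists of 2 biological replicates were used as deposited, on dm6. Per the deposited notes, the authors called peaks on each replicate and on both together against a control alignment, and kept peaks that passed an IDR threshold. For the caller, its version, the aligner and the threshold, nothing is given in the sources used here. Each peak carries the authors' signal on an unstated scale, used here to rank peaks within a list. It also carries a deposited −log10 q value, which stops at an upper limit. That value was quoted for some peaks but was not used to choose or rank them. Read depth is unknown, and intervals cover counting error over genes only.

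Genes and TSSs came from Ensembl release 115, without transposable elements and chromosome Y. Bases were read from RefSeq's sequence of that assembly. Gene assignment was tested on simulated peaks placed near isolated TSSs of single genes. Divergent, nested or closely spaced starts were not covered by that test. With 1 group no test was made. All 9 genes and all their IDR peaks are named, with the listed genes that had an IDR promoter peak. Genes given as contrasts (Cdk2, Cdk4, aurB, Wee1, Myt1 and the cyclins without an IDR promoter peak) were chosen after their values were seen. The members and lists were chosen with earlier results of these data known. Alternatives were other promoter distances, list lengths, single replicates, matching distances and assignment rules. Python 3.11.15, pandas 2.3.3, numpy 2.4.6 and scipy 1.17.1 were used.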

Additional observations from a re-analysis of the deposited data

How the results depend on the processing

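The count of genes with an IDR promoter peak was 5 of 9 with TSSs within 200 bp (9.12% of all genes) or 1000 bp (13.7%), 6 with 2 times as many pooled peaks (22.6%), 5 without replicate 2 (12.1%) and 4 without replicate 3 (12.2%). Among the 1222 IDR peaks of highest signal it was 0 (6.33% of all genes), the count with any assigned peak was 2 (8.25%) and the number of assigned peaks was 2. The 5 IDR promoter peaks ranked from 1262 to 2193, below that shorter list. For the wider lists the count of 18 became 11 with TSSs within 200 bp and 40 with 2 times as many pooled peaks, settings under which the share of all genes moved too, to 9.12% and 22.6%, against 12.0% as reported. It was 18 and 23 without replicates 2 and 3. With TSSs of genes of any type, or by nearest TSS only, 5 genes and 7 peaks were again assigned. Summits within 50 bp were found in both replicates for 5 of the 7 peaks. No paired analysis was possible because all samples form 1 group. With 2 libraries of unknown depth, a gene without a peak is below the limit of its list and is not shown to be unbound.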

Other observations

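At the tagged gene itself, CG7271 on 3L, no peak of the IDR list was assigned. Its highest promoter peak ranked 10602 in replicate 2 and 1160 in replicate 3, and 2824 in the pooled list. The larger rank was 9.14 times the smaller there, while at the promoters of the 9 cell cycle genes this ratio ran from 1.19 at CycE to 7.43 at stg. The ratio takes the highest promoter peak in each list, which need not be the same peak. At twe the replicate 2 summit lay 200 bp from the pooled one, and at polo the replicate 3 summit lay 532 bp from it.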
